A study of Mus musculus with 4 samples.

Results

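Neurexins, neuroligins and contactin-associated proteins are membrane proteins by which neurons hold on to each other and to the glia around their axons. The 8 genes described here were chosen by symbol from the 46983 genes of the deposited gene tables, and are the neurexins Nrxn2 and Nrxn3, the neuroligins Nlgn1, Nlgn2 and Nlgn3, and the contactin-associated protein genes Cntnap1, Cntnap2 and Cntnap4. Neurexins sit mainly in the presynaptic membrane and bind neuroligins, LRRTM proteins, cerebellins, neurexophilins and latrophilins across the synaptic cleft, and CASK, Mint and Lin7 proteins inside the terminal. Neuroligins are their postsynaptic partners: Nlgn1 is best known from excitatory synapses, Nlgn2 from inhibitory synapses and Nlgn3 from both, and neuroligins have also been described in astrocytes. Contactin-associated proteins carry a neurexin-like extracellular part. Cntnap1 joins the axon to the myelin loops at the paranode with contactin and neurofascin, Cntnap2 gathers shaker-type potassium channels at the juxtaparanode, and Cntnap4 has been described in interneurons.

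The study asked how brain cells of the mouse respond to permanent occlusion of the middle cerebral artery, here by single-nucleus RNA sequencing. There were 4 libraries: a sham control, and animals sampled 1, 3 and 7 days after the artery was coagulated and cut. All groups were male C57Black/6 mice, 3 months old, and each library pooled 3 forebrain hemispheres before nuclei were isolated, so single animals cannot be told apart and each group is 1 sample. The surgical label describes intact cortex as the control, whereas the design text speaks of forebrain hemispheres. The breakdown of nuclei by time in the study matches the deposited libraries only when day 3 and day 7 are exchanged; the labels were kept, and every value for these days is that of the library so labelled.

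The libraries held 23285489 to 42963698 unique molecular identifiers (UMIs) and 1018 to 3081 nuclei, 7786 in all, with a median of 5479 to 11029.5 UMIs per nucleus, the highest on day 1. Only 9 barcodes occurred in more than 1 library. Nuclei fell into 32 clusters, of which 5 stayed unnamed, and the others were named from fixed marker lists as 13 classes, among them 2137 glutamatergic-like, 440 GABAergic interneuron-like, 1082 striatal projection-like, 491 astrocyte-like, 240 oligodendrocyte precursor-like, 1169 oligodendrocyte-like and 391 microglia-like nuclei. Every marker of a class was higher there than in all other nuclei, except 1 of the 10 glutamatergic markers. Clusters were named by these same markers, so this is a description and no independent check of the names. The 10 leading genes of glutamatergic-like clusters 8 and 24 and of striatal projection-like clusters 10 and 29 held no marker of their own class. Levels are in CPM, the UMIs of a gene relative to all UMIs of the class in that library on the usual scale. The mean ± SD over the 4 libraries covers time and library together, since no time was sampled more than once.

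The genes differ widely in length, which can matter because the counts include introns. By the GRCm38 build, Cntnap2 spans 2244.857 kb (chr6:45059357-47304213, plus strand), Nrxn3 1612.06 kb (chr12:88722876-90334935, plus) and Nlgn1 906.246 kb (chr3:25426215-26332460, minus). Cntnap4 spans 312.675 kb (chr8:112570043-112882717, plus) and Nrxn2 125.439 kb (chr19:6418731-6544169, plus). The short genes are Nlgn3 with 26.796 kb (chrX:101299168-101325963, plus), Cntnap1 with 20.202 kb (chr11:101170523-101190724, plus) and Nlgn2 with 14.663 kb (chr11:69823122-69837784, minus). All but Nlgn2 overlap another annotated gene; for Cntnap1 these are Plekhh3 and Ccr10 on the other strand, and since the strand setting of the counting is not given in the sources used here, reads of such partners cannot be told apart. Counts cover whole genes, so long and short isoforms of the neurexins were not separated.

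Nrxn2 was highest in oligodendrocyte precursor-like nuclei, where it reached 700.3, 612, 489 and 548 CPM in the sham control, day 1, day 3 and day 7 libraries (mean 587 ± 90.6, SD, n = 4). No library of any other class reached the lowest of these. Astrocyte-like nuclei followed with 198, 181, 271 and 272 CPM (231 ± 47.9), a range that overlapped that of Baiap3-marked subcortical neurons (209.8 ± 6.35). Other neuronal classes held less of this neurexin: the means were 154 ± 8.25 CPM in GABAergic interneuron-like, 138 ± 16.7 in glutamatergic-like and 105 ± 15.3 in striatal projection-like nuclei. Oligodendrocyte-like nuclei lay between astrocyte-like nuclei and these neurons at 153, 175, 188 and 204 CPM, and their range overlapped that of Slc17a6-marked subcortical neurons (165 ± 36.0).

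Nrxn3 was led by neurons instead. GABAergic interneuron-like nuclei held 8301, 9095, 8878 and 8989.9 CPM (8816 ± 354), above every library of every other class. Striatal projection-like nuclei came next with 6804, 6576, 7661 and 7487 CPM (7132 ± 523), again without overlap with the named classes below. Baiap3-marked neurons (5786 ± 489.9) overlapped glutamatergic-like nuclei, which held 5252 ± 280.1 CPM. Next in order were oligodendrocyte precursor-like nuclei with 3714, 3497, 5452 and 3201 CPM (3966 ± 1013), the day 3 library being the high one. Microglia-like (2549 ± 633), astrocyte-like (1742 ± 298) and oligodendrocyte-like nuclei (660 ± 387) stood lowest of these 7 classes.

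**Figure D1:**
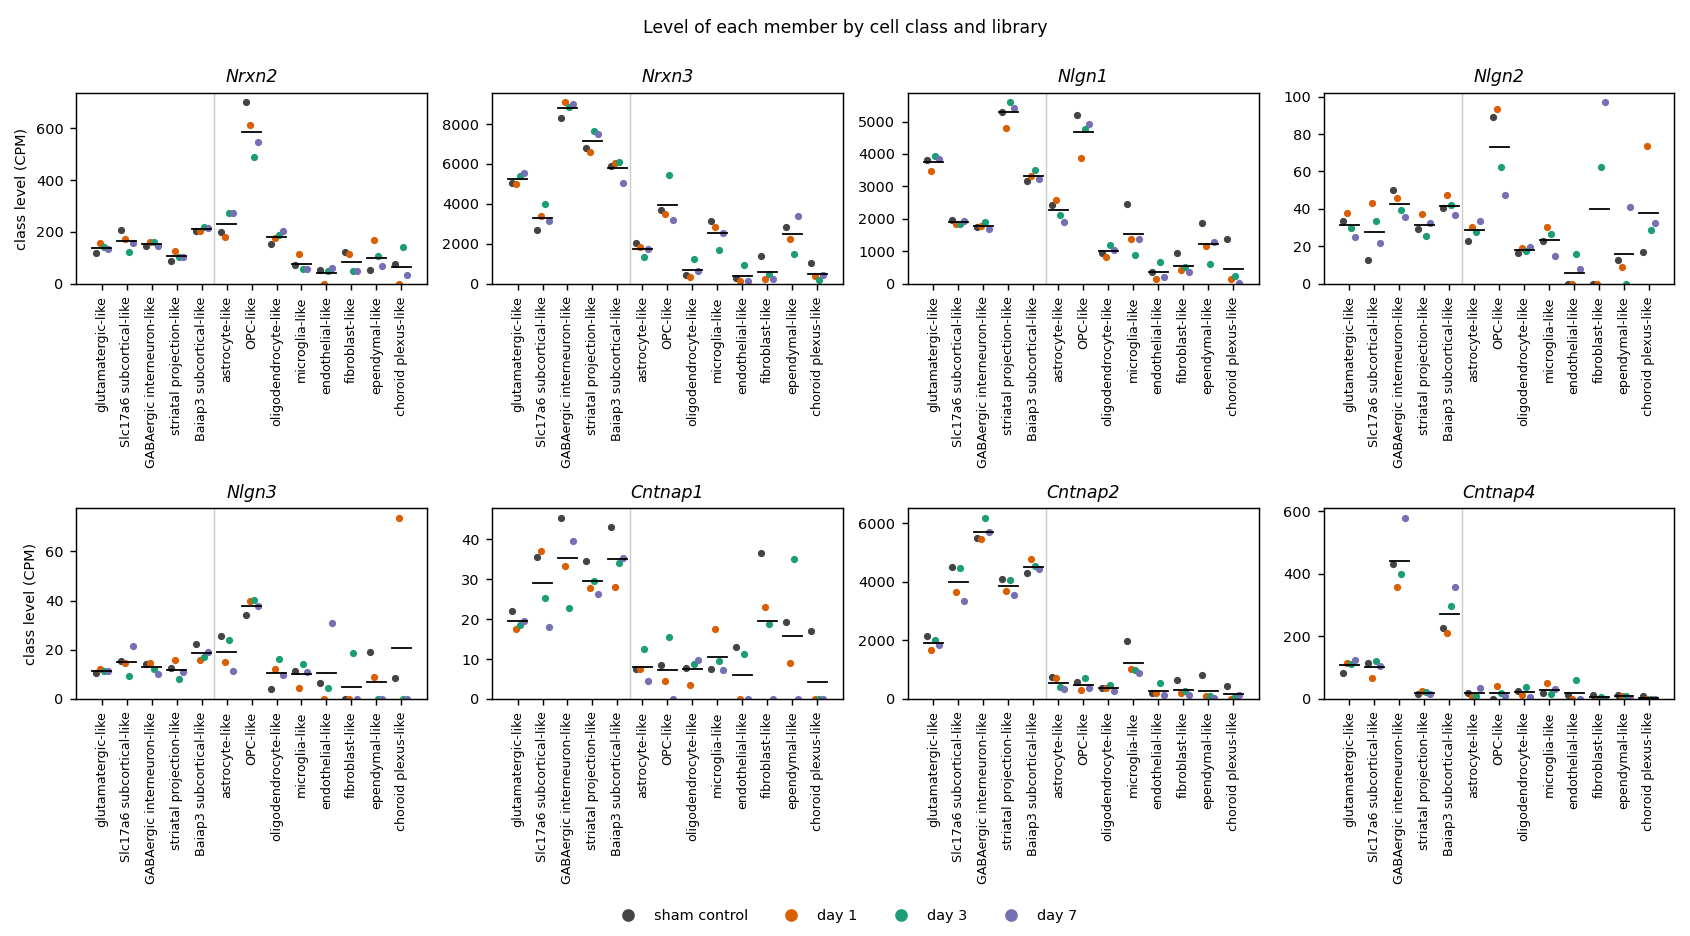
Level of each gene (CPM, linear axes of their own) in each class of nuclei, with 1 coloured point per library and a black bar for the mean over the 4 libraries; OPC stands for oligodendrocyte precursor and a gray line parts neuronal from other classes. By the mean, Nrxn2, Nlgn2 and Nlgn3 were highest in oligodendrocyte precursor-like nuclei, Nrxn3, Cntnap1, Cntnap2 and Cntnap4 in GABAergic interneuron-like nuclei, and Nlgn1 in striatal projection-like nuclei.

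Among the neuroligins, Nlgn1 was shared by neurons and glia. Striatal projection-like nuclei held 5310, 4803, 5594 and 5421 CPM (5282 ± 340), and oligodendrocyte precursor-like nuclei 5199.5, 3883, 4762 and 4925 CPM (4693 ± 569), ranges that overlapped. Glutamatergic-like nuclei held 3764 ± 194 CPM and astrocyte-like nuclei 2429, 2583, 2132 and 1891 CPM (2259 ± 308). GABAergic interneuron-like nuclei, the highest in Nrxn3, were low in this neuroligin, with 1752, 1792, 1900.2 and 1683 CPM (1782 ± 91.0). Oligodendrocyte-like nuclei were the lowest of the 7 classes at 997 ± 153 CPM.

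Nlgn2 and Nlgn3, both short genes, were counted sparsely. Nlgn2, the neuroligin of inhibitory synapses, stood at 89.1, 93.2, 62.5 and 47.2 CPM in oligodendrocyte precursor-like nuclei (73.0 ± 21.9), from 21, 21, 28 and 10 UMIs. GABAergic interneuron-like nuclei held 49.9, 46.0, 39.2 and 35.6 CPM (42.7 ± 6.45), so that the ranges overlapped, and oligodendrocyte-like nuclei 18.2 ± 1.46 CPM. Nlgn3 stood at 34.0, 39.9, 40.2 and 37.8 CPM in oligodendrocyte precursor-like nuclei (37.97 ± 2.89), although from 8, 9, 18 and 8 UMIs. Only choroid plexus-like nuclei, with 2 UMIs in all, overlapped that range; the neuronal classes were lower, for example glutamatergic-like nuclei at 11.4 ± 0.536 CPM.

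Cntnap1, the paranodal gene, was low everywhere. GABAergic interneuron-like nuclei held 45.5, 33.3, 22.9 and 39.7 CPM (35.4 ± 9.70), from 28 to 52 UMIs a library, overlapping Baiap3-marked neurons (35.2) and striatal projection-like nuclei (29.6). In glutamatergic-like nuclei it was 19.4 CPM, and in oligodendrocyte-like nuclei, the myelinating side of the paranode, 7.42 CPM. Cntnap2, the juxtaparanodal gene, was highest in GABAergic interneuron-like nuclei as well, at 5495, 5455, 6198 and 5715 CPM (5716 ± 341), above every other class in every library. Baiap3-marked (4516 ± 204) and Slc17a6-marked neurons (3990.1 ± 596) followed, with ranges that overlapped that of the next class. Striatal projection-like nuclei held 4114, 3700, 4079 and 3551 CPM (3861 ± 279) and glutamatergic-like nuclei 2137, 1686, 2029 and 1830.2 CPM (1921 ± 202). Glial classes lay lower, with 549.7 CPM in astrocyte-like, 489 in oligodendrocyte precursor-like and 369 in oligodendrocyte-like nuclei, and 1217 CPM in microglia-like nuclei.

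As a fold between the means of the named neuronal classes, Cntnap4 differed the most of the 8 genes. It reached 431, 357, 398 and 580 CPM in GABAergic interneuron-like nuclei (441 ± 97.1) and 225, 211, 296 and 359 CPM in Baiap3-marked neurons, the lowest interneuron-like library lying just under the highest of the latter. Glutamatergic-like nuclei held 84.1, 116, 112 and 123 CPM (109 ± 17.02), and striatal projection-like nuclei 15.8, 25.5, 22.4 and 14.4 CPM. In oligodendrocyte precursor-like nuclei 0, 9, 9 and 2 UMIs were counted.

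Genes were set against each other per length, which takes counts to grow with the length of the gene. That was not tested, and if it fails short genes are placed too high. In CPM per 100 kb of gene, oligodendrocyte precursor-like nuclei had similar values for Nlgn1 (518), Nlgn2 (498) and Nrxn2 (468). Values were lower for Nrxn3 (246) and Nlgn3 (142), and lowest for Cntnap1 (35.3), Cntnap2 (21.8) and Cntnap4 (5.56). GABAergic interneuron-like nuclei led with Nrxn3 (547), then Nlgn2 (291), Cntnap2 (255), Nlgn1 (197), Cntnap1 (175), Cntnap4 (141), Nrxn2 (123) and Nlgn3 (47.7). In striatal projection-like nuclei Nlgn1 (583) and Nrxn3 (442) led. The pair of neurexins therefore stood in opposite order per length in these classes: Nrxn2 above Nrxn3 in the precursors, Nrxn3 above Nrxn2 in the interneurons. That order rests on the scaling. In CPM Nrxn3 was above Nrxn2 in the precursors (3966 against 587) and in the interneurons (8816 against 154).

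Within neuronal classes the genes also differed between clusters. Cntnap4 averaged 767 CPM (699 to 919 over the libraries) in cluster 14, an interneuron cluster led by Eya4, Erbb4 and Sox6, against 279.8 CPM (217 to 340.2) in cluster 22 with Sst and Npy, 163 CPM (105 to 227) in cluster 18 with Vip, and 66.8 CPM (18.7 to 121) in cluster 27 with Pvalb. Among glutamatergic-like clusters it was 278 CPM (168 to 346) in deep-layer cluster 5 and 14.8 CPM (8.25 to 23.97) in upper-layer cluster 7. Nrxn3 had another order among interneurons, at 10895 CPM (9534 to 12833) in cluster 22, 10219 CPM (9508 to 10830.3) in cluster 18, 8631 CPM (8070.0 to 9387) in cluster 27 and 6791 CPM (6219 to 7363) in cluster 14. Cntnap2 was 6378 CPM (5656 to 7393) in cluster 14 and 2306 CPM (1819 to 2873) in cluster 27. The deep-layer cluster that was rich in Cntnap4 held 7256 CPM of Nrxn3 (6562 to 7940.5) and 1232 CPM of Cntnap2 (1079 to 1316). Clusters were drawn from these same genes' cells, so their differences are a description.

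**Figure D2:**
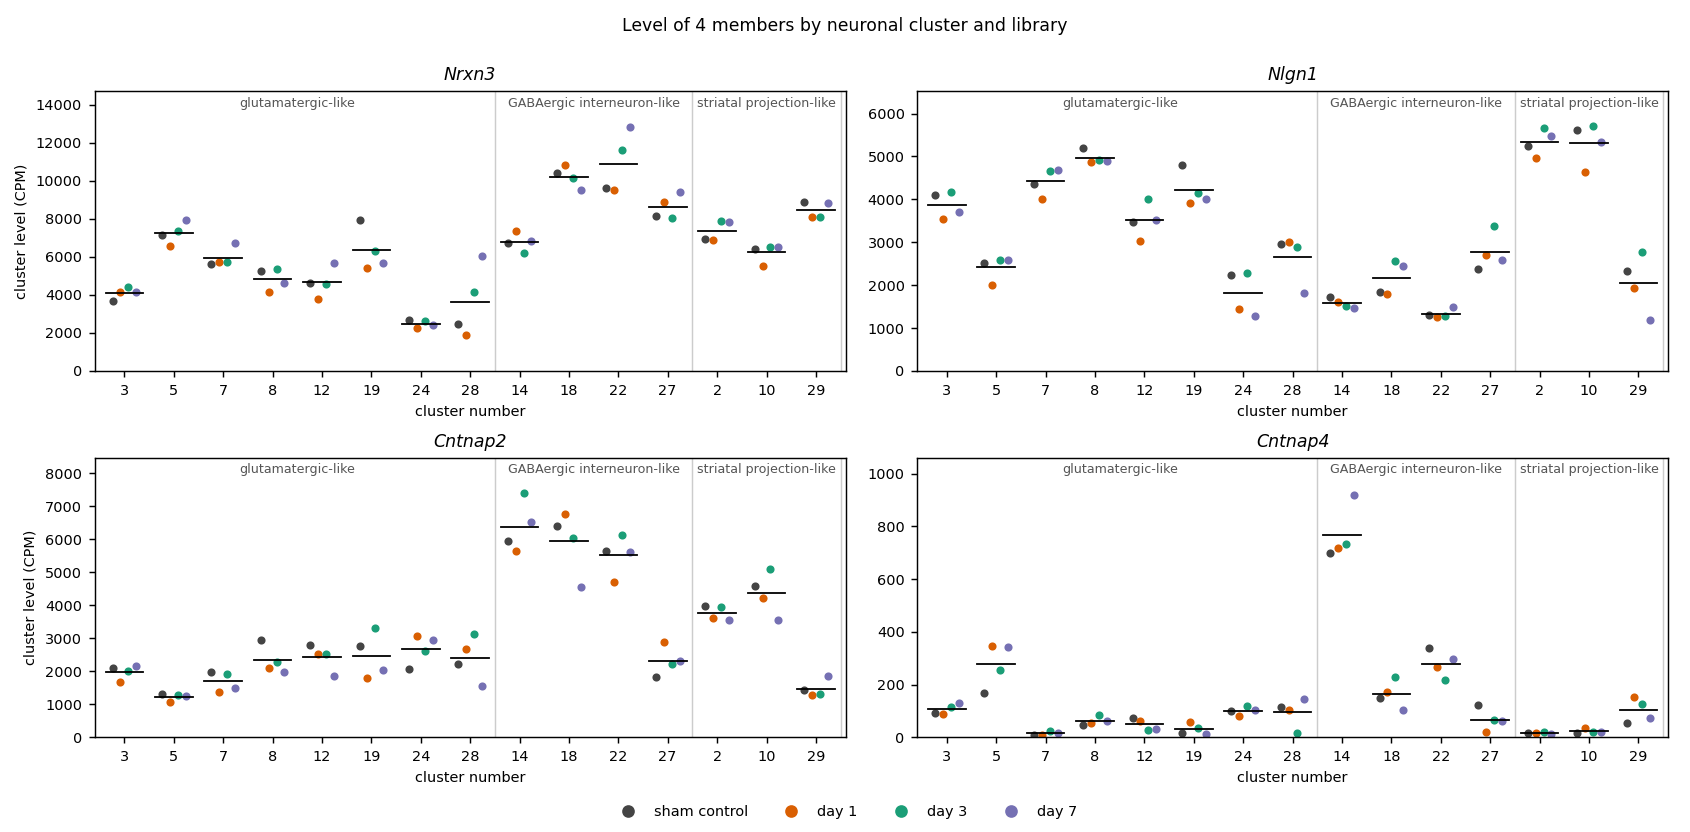
Level of Nrxn3, Nlgn1, Cntnap2 and Cntnap4 (CPM, linear axes) in each neuronal cluster, with 1 coloured point per library and a black bar for the mean. Cntnap4 stands highest in interneuron cluster 14, at 699 to 919 CPM, and deep-layer cluster 5 is the highest of the glutamatergic-like clusters at 168 to 346 CPM.

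Differences between classes were tested on class sums per library with edgeR's quasi-likelihood test, with the library as a term, over 11986 genes, and a gene was called at a Benjamini-Hochberg adjusted p under 0.05. Each sum is 1 class in 1 pool. Differences shared by all classes of a library are taken out by the library term. The spread is therefore what remains of each class in each library, and not the spread between libraries. Since the libraries were taken at different times, it includes any change of single classes with time. Scaling by the trimmed mean of M values (TMM) moved the median of all genes, against scaling by class totals, by -0.19 on the log2 scale for GABAergic against glutamatergic, by -0.11 for astrocyte, -0.10 for oligodendrocyte precursor and -0.34 for microglia against oligodendrocyte. Changes are therefore relative to these scaled sums and can differ from the ratio of the CPM above.

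GABAergic interneuron-like nuclei exceeded glutamatergic-like nuclei in all 3 contactin-associated protein genes and fell below them in Nlgn1. Calls were made for 4 of the 8 genes, against 29.9% of all genes tested (12.6% higher and 17.3% lower). Cntnap4 was higher by 1.84 ± 0.18 on the log2 scale (SE; adjusted p = 4.41e-10), Cntnap2 by 1.40 ± 0.22 (5.64e-06) and Cntnap1 by 0.66 ± 0.17 (0.00301). Nlgn1 fell by 1.26 ± 0.21 (8.08e-06). All of these had the same direction in 4 of 4 libraries. Without the sham control library Cntnap1 did not pass (0.58, adjusted p = 0.0616). Nrxn3 was higher in 4 of 4 libraries but missed the threshold, with a log2 difference of 0.56 ± 0.25 (adjusted p = 0.084); it passed without the day 3 library (0.58, adjusted p = 0.0208), with no filter on low counts (0.016), with libraries merged and not integrated (0.0202) and with every barcode over 1000 UMIs (0.0129). The median log2 difference was 0.41 over the 8 genes and -0.04 over all genes.

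Of 15 neurexin ligands tested in this comparison 2 were higher and 6 lower, led by Nxph1 (4.91 ± 0.36, 4.35e-13), a neurexophilin that binds neurexins, C1ql3 (-3.54 ± 0.28) and Igsf21 (-1.84 ± 0.17). Of 12 neuroligin-binding and scaffold genes 1 was higher and 5 lower, among them Mdga1 (-2.13 ± 0.41), which blocks neuroligin binding, and the excitatory scaffolds Dlg4 (-0.94 ± 0.14) and Shank2 (-0.87 ± 0.18). Of 6 cytoplasmic partners of neurexins 1 was higher and 3 lower, with Lin7a at -1.05 ± 0.18, Apba2 at -0.91 ± 0.14 and Apba1 at 0.64 ± 0.14. Of 10 node and juxtaparanode genes 3 were higher and none lower: Kcna1 (0.73 ± 0.15) and Kcna2 (0.42 ± 0.15), potassium channels gathered by Cntnap2, and Epb41l3 (0.61 ± 0.14), which anchors it. Among the other contactin-associated protein genes, Cntnap3 (3.22 ± 0.19) and Cntnap5c (1.70 ± 0.24) were higher and Cntnap5b lower (-0.49 ± 0.17). Kcna2 did not pass with no filter on low counts (adjusted p = 0.17), with no library block (0.0536), or without the sham control (0.144) or day 3 library (0.177). Cntnap5b did not pass with DESeq2 (0.114), merged libraries (0.0969) or no library block (0.0823), or without the day 3 (0.0826) or day 7 library (0.13). List medians were -0.40 for ligands, -0.34 for scaffolds, -0.48 for cytoplasmic partners, 0.15 for node genes and 0.92 for the other family genes, beside -0.04 over all genes.

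Striatal projection neurons are GABAergic too, but send long axons. In the striatal projection-like nuclei, set against glutamatergic-like nuclei, 4 of the 8 genes were called, beside 36.2% of all genes (17.3% higher and 18.9% lower). The class includes cluster 10, 273 of its 1082 nuclei, whose leading genes held none of the striatal markers. Cntnap2 was higher by 1.02 ± 0.22 (adjusted p = 0.000355) and Cntnap1 by 0.62 ± 0.15 (0.00096). Cntnap4 fell by 2.45 ± 0.22 (2.88e-11), the direction opposite to that in interneuron-like nuclei, and Nrxn2 fell by 0.40 ± 0.13 (0.0182). Each held its direction in 4 of 4 libraries. Nrxn2 did not pass without the sham control, day 3 or day 7 library (adjusted p = 0.0605, 0.0594 and 0.0655 in turn). Nlgn1, at 0.50 ± 0.20 (adjusted p = 0.0538), and Nrxn3, at 0.45 ± 0.25 (0.162), did not pass. Nlgn1 passed with DESeq2 (adjusted p = 0.0375), relative log expression factors (0.0457), no filter on low counts (0.0117), merged libraries (0.000761) and every barcode over 1000 UMIs (0.00137), and without cluster 10, an alternative chosen after seeing the data (0.0418). Nrxn3 passed with no filter (0.0285) and with every barcode over 1000 UMIs (0.0272). The median over the 8 genes was 0.25 and over all genes 0.01.

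Neurexin ligands were higher in 4 and lower in 4 of 15 in this comparison, among them C1ql3 (-2.58 ± 0.20) and the calsyntenin Clstn2 (-2.28 ± 0.20). Scaffold genes were also higher in 4 and lower in 4 of 12, with the excitatory scaffolds Shank1 (-1.89 ± 0.14), Dlgap1 (-1.52 ± 0.19) and Shank2 (-0.73 ± 0.17) lower. Cytoplasmic partners were lower in 3 of 6: Apba2 (-1.68 ± 0.14), Apba1 (-0.94 ± 0.15) and Cask (-0.34 ± 0.12). The call of Cask was lost with no filter on low counts (adjusted p = 0.0565), with no library block (0.0682), and without the sham control (0.145) or day 3 library (0.123). Node genes were higher in 4 and lower in 1 of 10, with the node anchor Ank3 at 0.81 ± 0.20, Epb41l2 at 0.77 ± 0.20 and the contactin Cntn2 at -0.78 ± 0.16. Cntnap3 was higher by 2.58 ± 0.19. Their medians were 0.00, 0.06, -0.33 and 0.04, and 0.37 over the other family genes.

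**Figure D3:**
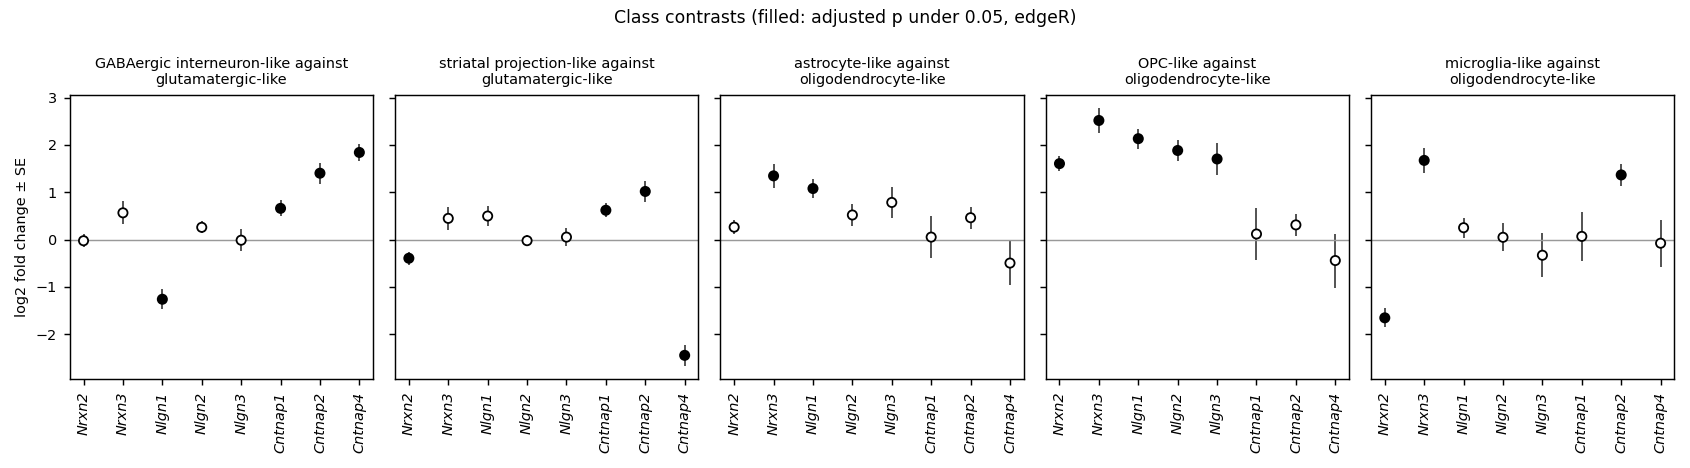
Log2 difference between classes for each of the 8 genes (points, edgeR) with its standard error (bars), in the 5 class comparisons; OPC stands for oligodendrocyte precursor. Filled points passed an adjusted p of 0.05: Cntnap4 was higher in interneuron-like (1.84) and lower in striatal projection-like nuclei (-2.45) than in glutamatergic-like nuclei, and 5 genes were higher in oligodendrocyte precursor-like than in oligodendrocyte-like nuclei.

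Oligodendrocyte precursors give rise to oligodendrocytes. In oligodendrocyte precursor-like nuclei both neurexins and all 3 neuroligins were higher than in oligodendrocyte-like nuclei, and no gene was lower, so that 5 of 8 were called beside 33.3% of all genes (17.5% higher and 15.8% lower). Nrxn3 was higher by 2.52 ± 0.26 (adjusted p = 1.15e-09), Nlgn1 by 2.13 ± 0.21 (4.04e-10), Nlgn2 by 1.88 ± 0.23 (2.59e-08), Nlgn3 by 1.70 ± 0.35 (0.000156) and Nrxn2 by 1.604 ± 0.15 (1.07e-10). All 5 were higher in 4 of 4 libraries. The contactin-associated protein genes did not pass, except Cntnap2 with every barcode over 1000 UMIs (1.04, adjusted p = 0.000775). The median over the 8 genes was 1.65, and -0.03 over all genes.

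Neurexin ligands went the same way in the precursors, with 11 of 15 higher and none lower (median 1.02): Nxph1 by 5.37 ± 0.40, Igsf21 by 3.83 ± 0.29 and the delta receptor Grid1 by 3.47 ± 0.24. Scaffold genes were higher in 7 and lower in 2 of 12 (median 0.60), with Dlgap1 at 2.60 ± 0.21, Mdga1 at 1.99 ± 0.71 and Magi2 at -1.32 ± 0.18. Mdga1 did not pass without the day 3 (1.48, adjusted p = 0.287) or day 7 library (2.17, 0.0575), or with every barcode over 1000 UMIs (1.37, 0.101). Cytoplasmic partners were higher in 3 and lower in 1 of 6 (median 0.58), with Apba2 at 2.51 ± 0.20, Cask at 1.83 ± 0.14 and Lin7a at 1.33 ± 0.34. Node and juxtaparanode genes were higher in 3 and lower in 6 of 10 (median -1.20). Cntn2, the partner of Cntnap2 on the juxtaparanode, was at -4.53 ± 0.25 and Kcna1 at -2.92 ± 0.20, whereas Cntn1, the partner of Cntnap1, was at 2.31 ± 0.17. Of the other family genes only Cntnap5b passed, at 1.97 ± 0.29 (list median 0.31).

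Astrocyte-like nuclei exceeded oligodendrocyte-like nuclei in Nrxn3, by 1.35 ± 0.26 (adjusted p = 5.49e-05), and Nlgn1, by 1.08 ± 0.21 (6.22e-05), each in 4 of 4 libraries. These were 2 calls among the 8 genes, beside 39.2% of all genes (21.2% higher and 18% lower). Nlgn3 missed the threshold at 0.78 ± 0.34 (adjusted p = 0.0636) but passed with DESeq2 (0.86, 0.049) and relative log expression factors (0.85, 0.0425). Cntnap2, at 0.46 ± 0.23 (0.122), passed with merged libraries (0.92, 0.000552), with every barcode over 1000 UMIs (1.102, 0.000244), where Nlgn2 passed as well (0.71, 0.00893), and without the day 3 library (0.72, 0.0174). The median was 0.49 over the 8 genes and 0.02 over all genes. Neurexin ligands were higher in 7 and lower in 2 of 15 (median 0.35), with Igsf21 at 2.04 ± 0.34, Grid1 at 2.04 ± 0.24 and the latrophilin Adgrl3 at 1.81 ± 0.17. Scaffold genes were higher in 6 and lower in 2 of 12 (median 0.61), with Mdga1 at 2.22 ± 0.58, Dlg4 at 1.82 ± 0.20 and Magi2 at -1.76 ± 0.18. Node genes were higher in 2 and lower in 6 of 10 (median -1.52), led by Cntn2 (-4.11 ± 0.19), Kcna1 (-3.68 ± 0.19) and Nfasc (-2.62 ± 0.18). The cytoplasmic partners Apba2 (2.49 ± 0.18) and Apba1 (-1.70 ± 0.17) and the family gene Cntnap5b (0.82 ± 0.29) passed as well (list medians 0.23 and 0.68), the last not without the day 1 library (0.41, adjusted p = 0.327).

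Microglia-like nuclei were higher than oligodendrocyte-like nuclei in Nrxn3, by 1.67 ± 0.26 (adjusted p = 2.07e-06), and in Cntnap2, by 1.37 ± 0.24 (1.12e-05), and lower in Nrxn2, which fell by 1.65 ± 0.20 (1.79e-08), each in 4 of 4 libraries. Nlgn1, at 0.25 ± 0.21 (0.37), was not called, but it passed with merged libraries (0.76, 4.09e-05), with every barcode over 1000 UMIs (0.86, 7.6e-06) and without the day 3 library (0.53, 0.0386), and was at -0.09 without the sham control. Single nuclei held 12.5 to 48.0% of the Nrxn3 UMIs and 19.1 to 62.0% of the Cntnap2 UMIs of a microglia-like library, and in the sham control 52 and 38 of 83 nuclei had a UMI of these genes. These 3 calls stand beside 40.5% of all genes (21% higher and 19.5% lower), and the median was 0.06 over the 8 genes and 0.00 over all genes. Of 10 genes of neuronal identity, 7 were also higher in microglia-like nuclei, against 4 in astrocyte-like and 1 in oligodendrocyte precursor-like nuclei in their comparisons; their part in the result was not tested. Neurexin ligands were higher in 8 and lower in 3 of 15 (median 0.64; Adgrl2 1.73 ± 0.23, Igsf21 1.51 ± 0.41), scaffold genes higher in 4 and lower in 3 of 12 (median 0.16; Magi2 -3.08 ± 0.19, Shank2 1.27 ± 0.32, Gphn -1.21 ± 0.13). Node genes were higher in 2 and lower in 7 of 10 (median -1.71), led by Cntn2 (-4.83 ± 0.24), Kcna1 (-3.96 ± 0.22) and Nfasc (-3.94 ± 0.21). Cytoplasmic partners were higher in 2 and lower in 1 of 6 (median 0.30; Apba2 1.02 ± 0.22, Cask 0.51 ± 0.15, Apba1 -0.42 ± 0.16), and 3 of 4 other family genes were higher (median 1.14; Cntnap5c 1.30 ± 0.50, Cntnap5a 1.01 ± 0.27, Cntnap5b 0.84 ± 0.33). Of these, Cntnap5a, Cntnap5b and Cntnap5c did not pass without the sham control library (adjusted p = 0.0944, 0.133 and 0.151). Cntnap5c did not pass without the day 7 library either (0.358), and Cntnap5b not without day 1 (0.091) or day 7 (0.0578) or with no library block (0.0589). Apba1 did not pass with DESeq2 (0.157), relative log expression factors (0.145) or no library block (0.057), or without the sham control (0.177), day 1 (0.086) or day 3 library (0.107). Cask did not pass without the day 7 library (0.121), and it overlaps Gpr34 and Gpr82 on the other strand.

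Because droplets also carry free RNA, the glial values were set beside what free RNA could give. The profile of barcodes with at most 1000 UMIs was scaled so that it accounted for every UMI of 10 neuronal genes in a class. This gives an upper estimate of its share, provided that free RNA had that composition in every droplet: 38.1 to 78.4% in microglia-like, 23.7 to 48.9% in astrocyte-like, 21.8 to 33.7% in oligodendrocyte precursor-like and 18.1 to 28.9% in oligodendrocyte-like nuclei. Against glutamatergic-like nuclei, 7 of the 10 genes were lower in GABAergic interneuron-like and 6 in striatal projection-like nuclei, and none was higher. Free RNA that came mainly from those classes would be counted too low. A level was above free RNA where the lower bound of its exact 95% Poisson interval, which covers counting error only, exceeded the scaled profile.

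In oligodendrocyte precursor-like nuclei all 5 neurexin and neuroligin genes were above that estimate in 4 of 4 libraries. Nrxn2 stood at 489 to 700.3 CPM against 45.5 to 65.1 from free RNA, Nrxn3 at 3201 to 5452 against 494 to 1034, and Nlgn1 at 3883 to 5199.5 against 354 to 765. Nlgn2 stood at 47.2 to 93.2 against 14.7 to 18.5, and Nlgn3 at 34.0 to 40.2 against 12.8 to 16.5. Astrocyte-like nuclei were above it in every library for Nrxn2 (181 to 272 against 45.8 to 105), Nrxn3 (1344 to 2059 against 728 to 998) and Nlgn1 (1891 to 2583 against 539 to 713). Oligodendrocyte-like nuclei were above it in every library for Nrxn2 (153 to 204 against 36.8 to 55.8) and Nlgn1 (816 to 1178 against 309.6 to 656), but Nrxn3 (346 to 1213 against 433 to 886) was above in 2 libraries and below in the other 2. In microglia-like nuclei Nrxn3 (1680.0 to 3146 against 1168 to 2007) and Cntnap2 (894 to 1970.2 against 608 to 1146) were above in 4 libraries and Nlgn1 in 3, and no other of the 8 genes in any; the microglial levels include the single nuclei named above and were not set against free RNA without them. Cntnap1 was above it in no library of these 4 glial classes. Cntnap2 was above it in 2 of 4 libraries each of oligodendrocyte precursor-like, astrocyte-like and oligodendrocyte-like nuclei, and below it in 1 of astrocyte-like nuclei.

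**Figure D4:**
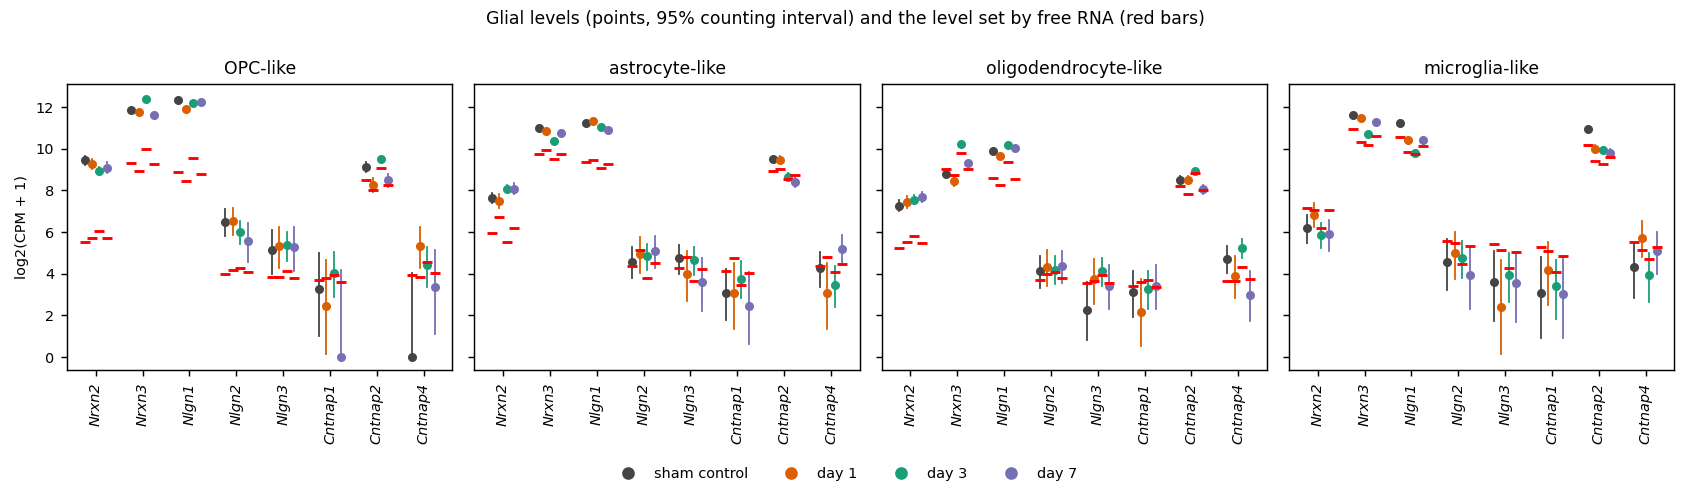
Level of each gene, as log2(CPM + 1), in each of the 4 glial classes, with 1 point per library, its 95% counting interval and a red bar at the level that free RNA could give; OPC stands for oligodendrocyte precursor. The neurexins and neuroligins of oligodendrocyte precursor-like nuclei lie above the red bars with their whole intervals in all 4 libraries, and those of Cntnap1 in none.

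Each day after occlusion was then set against the sham control. With 1 library a group these ratios have no replicate check and carry no p-value; the 95% intervals are exact binomial ones and cover counting error only. A pair of gene and class was counted when its ratio passed 1.5-fold, its interval left out 1 and both sums together held at least 20 UMIs. Of 56 pairs, 4 passed on day 1, 8 on day 3 and 5 on day 7, where 4 to 8 of the 8 genes had enough UMIs in a class and 5.52 to 20.8% of all genes passed by class and day.

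None of the 8 genes passed in glutamatergic-like nuclei on any day, where 8.62, 5.52 and 9.05% of all genes did, in order of time. The ratios of Nrxn3 were 0.986, 1.07 and 1.101, those of Nlgn1 0.917, 1.04 and 1.01, and those of Cntnap2 0.789, 0.9495 and 0.856. Cntnap4 had ratios of 1.38, 1.33 and 1.46. Dentate granule-like nuclei made up 0.951% of this class in the sham control and 5.944, 5.157 and 10.162% later, and their part in the result was not tested. In deep-layer cluster 5, singled out after its values were seen, Cntnap4 was 168 CPM in the sham control and 346, 257 and 341 CPM later, ratios of 2.06 (1.73 to 2.46), 1.53 (1.30 to 1.81) and 2.03 (1.70 to 2.42), while Nrxn3 in the same cluster had ratios of 0.916, 1.03 and 1.11.

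GABAergic interneuron-like nuclei had 1 pair past the limit. Cntnap1 was 22.9 CPM on day 3 against 45.5 in the sham control, a ratio of 0.502 (0.305 to 0.810) from 28 and 52 UMIs, and it was the lowest of the 4 libraries. It did not pass with nuclei thinned to 1000 UMIs (0.326). The background in this class was 6.44% of genes on day 1, 5.81% on day 3 (3.33% lower) and 7.71% on day 7. Nrxn3 had ratios of 1.096, 1.07 and 1.08 there, Cntnap2 of 0.993, 1.13 and 1.04, and Cntnap4 of 0.827, 0.922 and 1.34. Cluster 14, the interneuron cluster highest in Cntnap4, made up 40.9% of this class in the sham control and 34.9, 34.0 and 45.7% later. Its part in the result was not tested.

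Striatal projection-like nuclei are given by cluster between days, because the 10 leading genes of cluster 10 held none of the striatal markers but Clic6 of the choroid plexus list and Otof of the upper-layer list. As a class 1 pair passed, Cntnap4 on day 1 at 1.61 (1.08 to 2.39; 53 and 55 UMIs), beside 7.39% of genes (5.46% higher), and none on day 3 or day 7, beside 5.65 and 6.58%. That pair did not pass with merged libraries (1.15), every barcode over 1000 UMIs (1.17), doublets kept (1.48), thinned nuclei (1.62), a mean over nuclei (1.36) or the top nucleus left out (1.46). Nor did that pair pass without cluster 10 (1.36), an alternative chosen after seeing the data. In cluster 2 the ratio was 1.12 (0.65 to 1.88; 26 and 39 UMIs) and in cluster 10 2.39 (1.14 to 5.15; 19 and 14 UMIs). Cluster 2 gave ratios for Nrxn3 (0.996, 1.14 and 1.13 on day 1, 3 and 7), Nlgn1 (0.945, 1.08 and 1.05) and Cntnap2 (0.906, 0.992 and 0.896). Cluster 10 gave 0.860, 1.02 and 1.02 for Nrxn3, 0.827, 1.02 and 0.951 for Nlgn1, and 0.918, 1.11 and 0.774 for Cntnap2. Its Nrxn2 was higher on day 1, at 1.96 (1.40 to 2.75), and on day 3, at 1.604 (1.14 to 2.26). Cluster 29 held 5 to 20 nuclei a library, with Nlgn1 at 0.515 on day 7 from 16 and 86 UMIs.

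Oligodendrocyte-like nuclei had more Nrxn3 on day 3. The level was 449 CPM in the sham control, 346 on day 1, 1213 on day 3 and 632 on day 7, and the day 3 ratio was 2.698 (2.40 to 3.05; 1256 and 352 UMIs), with 17.6% of the day 3 UMIs in 1 nucleus. The ratio was 2.52 (2.17 to 2.93) in cluster 0, 1.19 (0.922 to 1.55) in cluster 9 and 11.4 (6.43 to 22.2; 336 and 12 UMIs) in cluster 25, which held 26 and 13 nuclei. Without cluster 25, left out after seeing the data, the class gave 2.22, and with every barcode over 1000 UMIs 1.59. Free RNA could give this class a share of 28.9% on day 3 and 20.1% in the sham control. The Nrxn3 level was below what that share could give in the sham control (449 against 514 CPM) and above it on day 3 (1213 against 886 CPM). Nlgn3 passed as well on day 3, at 4.28 (1.24 to 22.8), from 17 and 3 UMIs, but not without cluster 25 (3.82), with merged libraries (6.51), at a clustering resolution of 0.4 (3.84) or with the top nucleus left out (5.67). Neither level was above what free RNA could give, at 16.4 CPM against 14.2 on day 3 and 3.83 against 10.7 in the sham control. The background was 10.6% of genes on day 1, 8.4% on day 3 (5.17% higher) and 8.7% on day 7 (5.3% lower). Day 1 had no pair past the limit in this class, and day 7 had Cntnap4 at 0.275 (0.0807 to 0.755), from 5 and 20 UMIs, which did not pass with thinned nuclei (0.632) or without the top nucleus (0.292).

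On day 3, 4 of 14 neurexin ligands of the oligodendrocyte-like nuclei, 3 of 11 scaffold genes, 2 of 6 cytoplasmic partners and 1 of 3 other family genes passed as higher, and none as lower, while 0 of 10 node and juxtaparanode genes passed. The median log2 ratios were 0.45 for ligands, 0.22 for scaffolds, -0.12 for cytoplasmic partners, 0.16 for the other family genes and 0.16 for node genes, beside 0.40 for the 7 of the 8 genes with enough UMIs and -0.02 for all genes. The highest ratios were Adgrl1 (2.05) and Lrrtm4 (1.92) among ligands, Shank2 (3.33) and Shank1 (2.90) among scaffolds, Lin7a (2.27) and Apba2 (2.20) among cytoplasmic partners, and Cntnap5c (3.02) in the family. Among the lowest were Nxph1 (0.740), Lrrtm3 (0.858), Magi2 (0.857), Lin7b (0.825), Lin7c (0.838) and Cntnap5b (0.843). Node genes ran from Epb41l3 (0.839) and Cntn2 (0.849) to Epb41l2 (1.30) and Sptbn4 (1.56). On day 1, 3 of 14 ligands were lower and none higher in this class, although the median log2 ratio of the ligands was 0.23, beside -0.03 for all genes.

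In the class sums of microglia-like nuclei Nlgn1 and Cntnap2 were past the limit as lower on every day after occlusion, but not under every alternative. Nlgn1 was 2447 CPM in the sham control and 1373, 881 and 1372 CPM later, ratios of 0.561 (0.489 to 0.643), 0.360 (0.316 to 0.410) and 0.561 (0.493 to 0.638). Cntnap2 was 1970.2 CPM and then 1016, 988 and 894 CPM, ratios of 0.515 (0.440 to 0.603), 0.502 (0.440 to 0.572) and 0.454 (0.388 to 0.529). Nrxn3 passed on day 3 alone, at 0.534 (0.482 to 0.591), but not with doublets kept (0.676) or the top nucleus left out (0.669). The background here was 15.8, 20.8 and 14.2% of genes, of which the lower ones made 7.24, 9.16 and 6.64%. In the same order the share of free RNA was at most 78.4% in the sham control and 62.9, 38.1 and 54.6% on day 1, 3 and 7, and single nuclei held up to 62.0% of the UMIs of Cntnap2; their part in the result was not tested. When libraries were merged without integration none of these ratios passed, with Nlgn1 at 0.780, 1.01 and 0.899, Cntnap2 at 0.693, 0.993 and 0.693, and Nrxn3 on day 3 at 1.37. As a mean over nuclei Nlgn1 was at 0.860, 0.766 and 0.690, none past the limit, and Cntnap2 at 0.921 and 1.08 on day 1 and day 3, while on day 7 it still passed. With nuclei thinned to 1000 UMIs, Nlgn1 did not pass on day 1 (0.622) and day 3 (0.780), nor Cntnap2 on any day (0.764, 1.29 and 0.6695), and Nrxn3 on day 3 was at 1.07. With every barcode over 1000 UMIs, Nlgn1 did not pass on day 3 (0.829) and day 7 (0.704), nor Cntnap2 on day 3 (0.833).

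In microglia-like nuclei on day 3, 7 of 13 neurexin ligands, 6 of 11 scaffold genes, 4 of 8 node genes and 2 of 3 other family genes passed as lower and none as higher, and 0 of 5 cytoplasmic partners passed. The median log2 ratios were -0.80 for ligands, -0.79 for scaffolds, -0.81 for node genes, -0.94 for the other family genes and -0.26 for cytoplasmic partners, beside -0.95 for the 4 of the 8 genes with enough UMIs and 0.15 for all genes. Among the lowest ratios were Nxph1 (0.292), Dlg2 (0.441), Mdga2 (0.444), Sptbn4 (0.243), Ank3 (0.415), Cntnap5a (0.379) and Cntnap5c (0.521), and among cytoplasmic partners Apba2 (0.612) and Lin7a (0.633). The highest were C1ql3 (0.914), Clstn2 (1.02), Dlg4 (1.09), Shank1 (1.54), Epb41l3 (1.01), Epb41l2 (1.36), Apba1 (1.02), Lin7c (1.27) and Cntnap5b (0.524). On day 7, 8 of 14 ligands, 3 of 9 scaffold genes and 2 of 3 other family genes were lower and 1 other family gene higher (medians -0.66, -0.51 and -1.21; all genes 0.06).

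Astrocyte-like nuclei had less Cntnap2 on the later days, from 738 CPM in the sham control and 713 on day 1 to 405 on day 3 and 343 on day 7, with ratios of 0.549 (0.475 to 0.633) and 0.465 (0.386 to 0.559). On day 7, 41.6% of its UMIs were in 1 nucleus. The level was above what free RNA could give in the sham control and on day 1, not above it on day 3 (405 against 379 CPM) and below it on day 7 (343 against 426 CPM). Nrxn3 was at 0.653 (0.602 to 0.708) on day 3. On day 3 neither gene passed with doublets kept (0.763 for Cntnap2 and 0.789 for Nrxn3), every barcode over 1000 UMIs (0.817 and 0.739), thinned nuclei (0.679 and 0.899) or a mean over nuclei (0.819 and 0.893). The background was 10.6% of genes on day 1, 10.9% on day 3 (6.79% lower) and 10.8% on day 7 (6.38% lower), and the free RNA share at most 33.9% in the sham control and 48.9, 23.7 and 30.2% later. With free RNA subtracted at the microglial share Nrxn3 on day 3 turned to 1.18, whereas subtracted at the class's own share, an alternative chosen after seeing the data, it still passed as lower. Nlgn1 had ratios of 1.06, 0.878 and 0.779, none past the limit. On day 3, 3 of 4 other family genes and 3 of 10 node genes were lower in this class (median log2 ratios -0.97 and -0.22; all genes -0.03).

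In oligodendrocyte precursor-like nuclei only Cntnap2 passed, at 0.550 (0.406 to 0.741; 70 and 133 UMIs) on day 1 and 0.636 (0.473 to 0.849) on day 7. In the sham control 54.1% of its UMIs were in 1 nucleus, on day 1 41.4% and on day 7 51.3%. On neither day was the level above what free RNA could give, at 311 against 261 CPM on day 1 and 359 against 307 on day 7, while in the sham control it was (565 against 363). The day 1 ratio did not pass with the top nucleus left out (0.721), as a mean over nuclei (0.830) or with thinned nuclei (0.402), nor the day 7 ratio with the top nucleus left out (0.656), merged libraries (0.833) or thinned nuclei (0.760). The background was 10.4% of genes on day 1 (4.43% lower), 9.97% on day 3 and 8.86% on day 7 (4.54% lower). Nrxn2 had ratios of 0.874, 0.699 and 0.782, and Nlgn2 of 1.05, 0.702 and 0.530. Nrxn3 had a ratio of 1.47 (1.36 to 1.59) on day 3, with 36.4% of the UMIs in 1 nucleus. In every class and day not given with its lists here, at most 2 genes of a partner list passed in either direction.

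**Figure D5:**
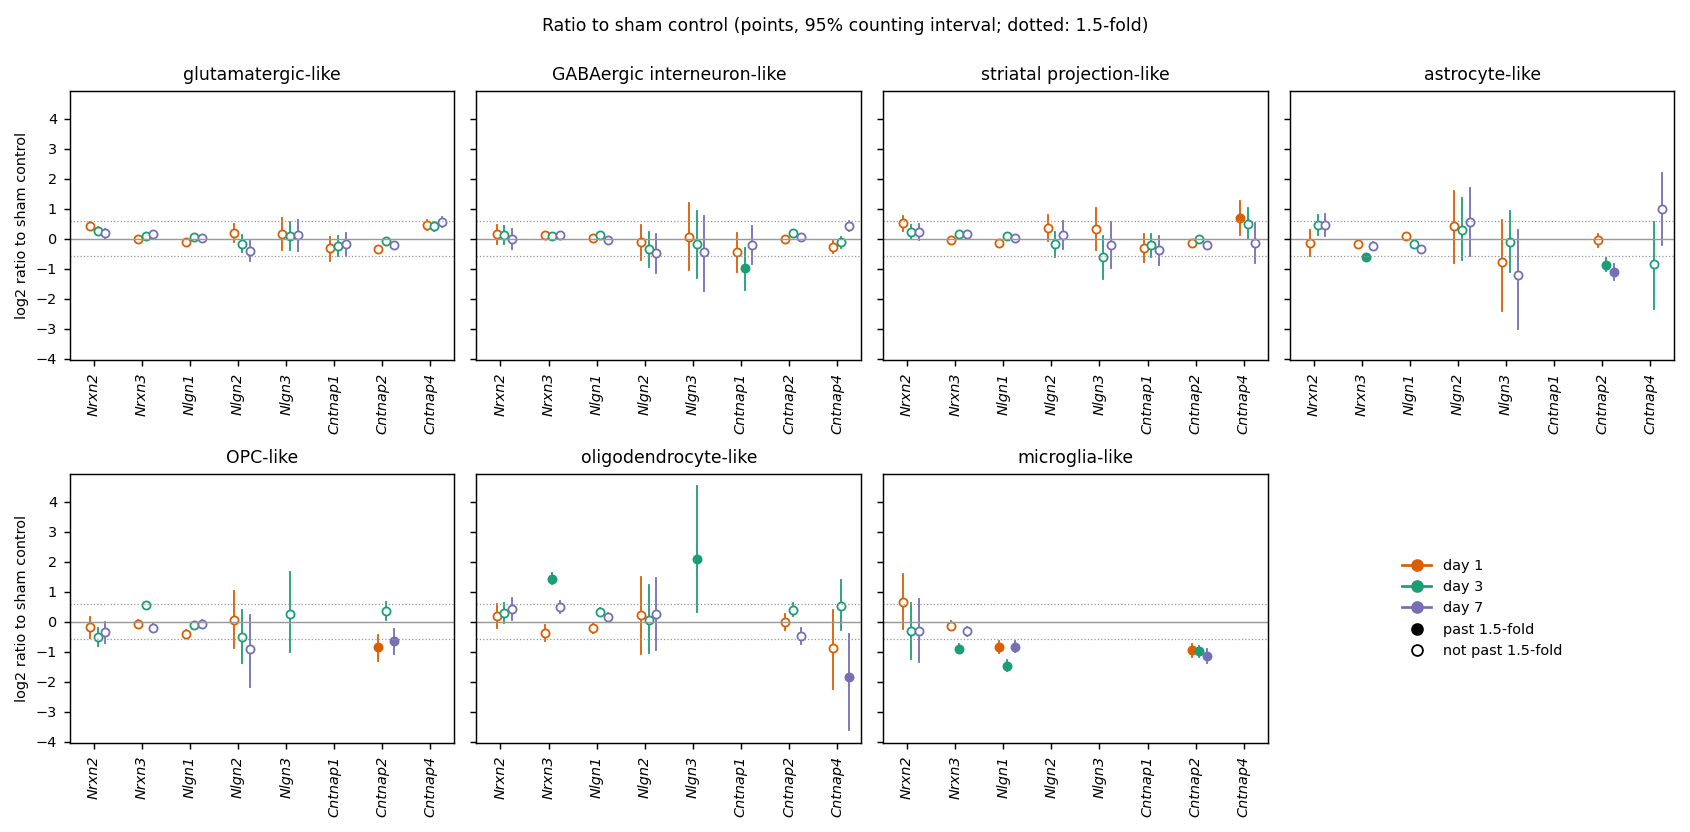
Log2 ratio of each day to the sham control for each gene and class with enough UMIs; bars are exact 95% intervals for counting error, filled points passed 1.5-fold, which the dotted lines mark, and OPC stands for oligodendrocyte precursor. No gene of glutamatergic-like nuclei is filled, Nrxn3 in oligodendrocyte-like nuclei on day 3 stands at a log2 ratio of 1.43, and Nlgn1 in microglia-like nuclei on day 3 at -1.47.

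The genes whose levels over the 13 classes were most like each of the 8, by Pearson's r among 13175 genes, are given as a description, since the classes share libraries and depth. Nrxn2 was nearest to Gpt2 (0.94), Cacng7 (0.90) and Sema6d (0.89), and Nrxn3 to Unc79, Gabrg3 and Syt14 (0.96 each). Nlgn1 was nearest to Map2, Dcc and 2700099C18Rik (0.94 each), Nlgn2 to Guf1 (0.90), Dlg3 (0.89) and Zfp811 (0.89), and Nlgn3 to A930009A15Rik (0.87), Taf1 (0.84) and Cntn1 (0.81). Cntnap1 was nearest to Ttc3 (0.94), Gm26906 (0.93) and Dync1i1 (0.93), Cntnap2 to Meg3 and Snhg14 (0.98 each), and Cntnap4 to Ubap1l (0.95), Syp (0.94) and Gm13629 (0.94).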

How the data were processed

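The authors deposited raw UMI counts per gene and barcode for each of 4 libraries (10x 3' v3.1 chemistry), made with STARsolo (STAR 2.7.3a) on GRCm38 with GENCODE vM8, exons and introns together and UMIs collapsed within 1 mismatch, with no filter on barcodes. Here nuclei were called by an emptyDrops test (barcodes over 1000 UMIs, false discovery rate under 0.001, 10000 draws), 145 doublets were removed at an assumed 0.8% per 1000 nuclei, and nuclei were clustered with Seurat 5.3.0 (SCTransform integration, resolution 0.8) in R 4.3.3; a cluster was named by its score over fixed markers and otherwise left unnamed. The counts were summed per class and library. Levels are CPM of the class sum, with positions from GRCm38 (46488 of 46983 identifiers matched). Classes were compared with edgeR 4.0.16 (quasi-likelihood test, class and library as terms, 7 classes in 4 libraries, filterByExpr, TMM, Benjamini-Hochberg over 11986 genes). The test was also run on simulated counts with a dispersion shared by all genes and no library effect, unlike the data, and that outcome is not reported here. Days were compared by ratios of CPM with exact 95% binomial intervals from scipy 1.17.1 and no p-value, since each group is 1 library.

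All 8 genes are named throughout. From each partner list the text names, in a class comparison, the 3 called genes with the largest absolute log2 difference and, in a day comparison, the 2 highest and 2 lowest ratios, the latter given only for oligodendrocyte-like and microglia-like nuclei on day 3, a limit set after the values were seen; for each of the 8 genes the 3 most alike are named. Where fewer are named, the gene is not reported here, though it is counted in its list. The genes and lists were chosen with earlier results of these data known. PCR copies were collapsed by UMI, and intervals cover counting error only. Alternatives were DESeq2 1.42.0, other filters, normalizations, clusterings and nucleus thresholds, thinning, removal of free RNA, and leaving out each library. No sequences were used here.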

Additional observations from a re-analysis of the deposited data

How the results depend on the processing

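Across classes, the count of the 8 genes called stayed within 1.5 times under DESeq2, relative log expression factors, no filter on low counts, merged libraries and no library block, and with every barcode over 1000 UMIs it moved by more than that in 1 comparison, astrocyte against oligodendrocyte, to 4 from 2, and within it in the other 4, to 5, 6, 6 and 4 from 4, 4, 5 and 3. Leaving out each library in turn gave 3 to 5 calls for GABAergic against glutamatergic, 3 to 4 for striatal projection against glutamatergic, 2 to 3 for astrocyte, 5 for oligodendrocyte precursor and 3 to 4 for microglia against oligodendrocyte. Nlgn1 in microglia-like against oligodendrocyte-like nuclei, not called at 0.25, ran from -0.0938 without the sham control library to 0.53 without day 3, and was called at 0.76 with merged libraries and 0.86 with every barcode over 1000 UMIs. The highest class of the 8 genes held in 8 of 8 with merged libraries and with free RNA subtracted at the microglial share, and in 7 of 8 with thinned nuclei, where Cntnap1 was highest in ependymal-like nuclei. The free RNA subtraction set small sums to 0, so a class can stay highest there because other classes have no value left. The levels themselves moved with that subtraction, mean CPM in the highest class going from 587 to 1365 for Nrxn2, 8816 to 19759 for Nrxn3, 5282 to 11305 for Nlgn1, 73.0 to 99.4 for Nlgn2, 37.97 to 8.69 for Nlgn3, 35.4 to 18.3 for Cntnap1, 5716 to 13238 for Cntnap2 and 441 to 1113 for Cntnap4. Day counts moved more. With every barcode over 1000 UMIs they were 7 on day 1 and 5 on day 3, with thinned nuclei 1 and 2, and with a mean over nuclei 0 and 3. Free RNA subtracted at the microglial share gave 9 on day 1 and 9 on day 7, 2 of them each time among the pairs first counted, where 33 of 56 pairs had no value. Subtracted at each glial class's own share, an alternative chosen after seeing the data, it gave 4, 7 and 5 on day 1, 3 and 7 and kept 4 of 4, 6 of 8 and 3 of 5, and leaving out the top nucleus gave 3 on day 7. With merged libraries 1 of 4, 4 of 8 and 2 of 5 pairs past the limit were kept on day 1, 3 and 7. Ratios that changed direction were all on day 3: Nrxn3 in astrocyte-like nuclei to 1.18 with free RNA subtracted, Nrxn3 in microglia-like nuclei to 1.37 merged, 1.01 with every barcode over 1000 UMIs, 1.07 thinned and 1.01 as a mean over nuclei, Nlgn1 there to 1.01 merged, and Cntnap2 there to 1.29 thinned and 1.08 as a mean over nuclei. The cause was not tested. Nrxn3 in oligodendrocyte-like nuclei on day 3 passed under every alternative that gave a value (1.59 to 2.76); free RNA subtracted gave none. The class comparisons were fitted with the library as a term, but between days and sham control no paired analysis was possible because each group is 1 library. Few UMIs limit Nlgn2, Nlgn3 and Cntnap1.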

Other observations

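Endothelial-like nuclei, 6 to 73 a library, held Nrxn3 at 285 CPM in the sham control and 154, 911 and 123 CPM on day 1, 3 and 7, from 44, 5, 400 and 16 UMIs. Nlgn1 there was 369, 154, 674 and 200.5 CPM, and Cntnap2 188, 184, 551 and 131 CPM, so that all 3 were highest in the day 3 library. The upper estimate of the free RNA share of this class was 11.9, 6.28, 25.7 and 9.37% in the same order. Nrxn3 was above the level set by that share on day 3 alone (911 against 787 CPM) and below it on day 7 (123 against 269 CPM), Nlgn1 was above it in the sham control and on day 3, and Cntnap2 on day 1 and day 3. The other small named classes went the other way on day 3: Nrxn3 had ratios to the sham control of 0.365 in fibroblast-like, 0.525 in ependymal-like and 0.165 in choroid plexus-like nuclei, and Nlgn1 of 0.554, 0.319 and 0.165. The sham control and day 3 libraries held 27 and 48 fibroblast-like, 17 and 20 ependymal-like and 8 and 7 choroid plexus-like nuclei. For fibroblast-like nuclei the upper estimate of the free RNA share was 44.1% in the sham control and 16.4% on day 3. Nrxn3 there was 1390 CPM against 1129 from free RNA in the sham control, and 507 against 503 CPM on day 3. The part of free RNA in these ratios was not tested.

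Among subcortical neurons, the ratios past 1.5-fold with an interval that left out 1 went both ways. In Baiap3-marked neurons they were those of Cntnap4 on day 7, at 1.59 (1.39 to 1.82; 486 and 406 UMIs), and Cntnap1 on day 1, at 0.652 (0.440 to 0.955; 44 and 78 UMIs). In Slc17a6-marked neurons they were those of Nlgn2 on day 1, at 3.40 (1.25 to 11.5; 21 and 5 UMIs), Cntnap4 on day 1, at 0.594 (0.367 to 0.951; 33 and 45 UMIs), and Nrxn2 on day 3, at 0.585 (0.423 to 0.809; 77 and 82 UMIs). These ratios have no replicate check. The share of all genes past the same limit was not taken for these classes. Whether the genes named here passed more often than other genes was therefore not tested.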
